A study of Rattus norvegicus with 10 samples.

Results

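The major histocompatibility complex (MHC) of the rat, named RT1, was described across the livers of 10 male Sprague-Dawley rats, an outbred laboratory stock. The labels call 5 animals controls, without further detail, and the 5 exposed animals had a short exposure to effluent of factories that make bulk drugs. Dose, length of exposure and age are not in the labels, and each array stands for 1 animal. The members were all probe sets whose platform annotation holds a symbol starting RT1-, with the single-symbol probe sets of Cd74 and Ciita, which gave 40 of 31042 probe sets tested. Of these, 26 carry class I names (RT1-A, RT1-C, RT1-M, RT1-N, RT1-S and RT1-T), 11 carry class II names (RT1-B and RT1-D), 1 is Cd74 and 2 are Ciita. A single symbol was named by 34 of the 40, and 6, all of class I, named several.

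Class I molecules are held by nearly all nucleated cells and show peptides from inside the cell to CD8 T cells and natural killer cells. Class II molecules are dimers of an alpha and a beta chain that show peptides from outside the cell to CD4 T cells, and in liver they are borne mainly by Kupffer cells, dendritic cells and B cells. Cd74, the invariant chain, escorts class II dimers to the endosome, and Ciita is the transactivator that switches class II genes on. The MHC is among the most variable parts of a mammal's genome, with gene content and sequence that differ between haplotypes. Class I genes arose by repeated duplication and resemble one another, so a probe set may read RNA of several of them, and values of RT1-A and RT1-C names are uncertain as to the gene. Values are log2 expression values of a probe set. Levels of different probe sets were compared only to filter low values, to call probe sets dim and to pick the brightest of a gene.

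Of 27 symbols on the member probe sets, 24 were found on chromosome 20 of the rat assembly GRCr8. RT1-Ba and RT1-Bb, the alpha and beta chain of the classical RT1-B dimer, are neighbours with 0 annotated genes between them. RT1-A3, in the classical class I region, is separated from RT1-Bb by 19 annotated genes, and RT1-CE12, in the RT1-C/E class I region, lies 125 annotated genes away from RT1-Bb. The promoters of RT1-Da, RT1-Ba and RT1-Bb are shown because these class II genes followed Cd74 or separated the animals below. They come from RefSeq (GRCr8, from a Brown Norway rat, so alleles of the animals measured may differ) and run from 250 bases before to 50 bases after the annotated start. Capitals mark ATTGG on the gene's own strand, the core of the class II Y box.
RT1-Da: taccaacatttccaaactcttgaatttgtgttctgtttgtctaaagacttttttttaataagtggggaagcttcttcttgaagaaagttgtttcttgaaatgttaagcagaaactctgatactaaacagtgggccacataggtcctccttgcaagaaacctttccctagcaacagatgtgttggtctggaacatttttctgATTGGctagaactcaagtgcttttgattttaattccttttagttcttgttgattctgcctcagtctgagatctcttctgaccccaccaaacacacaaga
RT1-Ba: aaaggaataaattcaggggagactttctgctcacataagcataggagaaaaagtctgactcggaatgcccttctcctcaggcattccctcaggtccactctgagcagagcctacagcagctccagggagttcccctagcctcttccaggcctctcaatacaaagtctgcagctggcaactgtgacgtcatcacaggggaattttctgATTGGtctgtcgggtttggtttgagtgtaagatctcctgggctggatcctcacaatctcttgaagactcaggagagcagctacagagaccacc
RT1-Bb: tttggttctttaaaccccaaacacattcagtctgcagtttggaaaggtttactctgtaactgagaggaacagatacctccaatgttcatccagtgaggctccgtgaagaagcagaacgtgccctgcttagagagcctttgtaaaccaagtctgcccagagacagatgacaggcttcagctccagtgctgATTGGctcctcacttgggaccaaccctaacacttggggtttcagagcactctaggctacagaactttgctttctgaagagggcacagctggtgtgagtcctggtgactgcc
They lie at chr20:4515165-4515464 (plus strand), chr20:4576807-4577106 (plus strand) and chr20:4604069-4604368 (minus strand). The core began 49 bases before the start in RT1-Da, 43 in RT1-Ba and 61 in RT1-Bb. On either strand it was held by 5 of 5 class II promoters of the table and 13 of 16 class I promoters, against 37.7% of all 27457 promoters.

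The promoters of RT1-A2 and RT1-A3, the classical class I genes named by the probe set that separated the animals most widely, are printed in the same way. Capitals mark the palindromic NF-kB site of the class I enhancer A, which was searched as a single exact sequence.
RT1-A2: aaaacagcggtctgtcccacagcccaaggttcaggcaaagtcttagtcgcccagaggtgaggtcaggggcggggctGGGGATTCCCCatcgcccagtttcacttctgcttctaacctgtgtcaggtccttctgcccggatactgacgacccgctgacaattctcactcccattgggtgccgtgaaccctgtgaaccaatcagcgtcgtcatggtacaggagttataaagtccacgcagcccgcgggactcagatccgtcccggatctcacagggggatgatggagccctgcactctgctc
RT1-A3: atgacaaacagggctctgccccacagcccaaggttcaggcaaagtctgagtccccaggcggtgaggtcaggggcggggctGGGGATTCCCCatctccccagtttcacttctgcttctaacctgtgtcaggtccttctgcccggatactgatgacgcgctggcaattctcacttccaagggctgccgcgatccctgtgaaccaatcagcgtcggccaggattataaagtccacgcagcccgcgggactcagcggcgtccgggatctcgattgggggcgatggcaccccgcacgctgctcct
They lie at chr20:4872621-4872920 (plus strand) and chr20:4849201-4849500 (plus strand). The site began 174 bases before the start in RT1-A2 and 170 in RT1-A3. On either strand it was held by 7 of 16 class I promoters, 0 of 5 class II promoters and 17 of all 27457 (0.0619%). The core of an interferon element, a pair of GAAA with 2 free bases between, was held by 2 of 16 class I promoters (RT1-N3 and RT1-S3), 0 of 5 class II promoters and 3.77% of all. The 3 motifs did not overlap in the promoters of the members. A match describes the letters only, and binding was not measured.

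The arrays resembled one another, with correlations between any 2 of them of 0.991 to 0.996 over the probe sets and no identical columns. Hepatocyte markers were present in every liver, with a mean log2 value over 6 genes of 13.5 to 13.7. Of the members, 26 lay above the mean of the median probe set, used here as a filter on low values. These were 15 of 26 in class I, 10 of 11 in class II and Cd74, while both Ciita probe sets lay below it.

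Several MHC probe sets did not vary smoothly between animals but read in 2 levels. A probe set was taken to read in 2 levels where the widest gap between neighbouring values of the 10 ordered animals was at least 1.0 on the log2 scale. This held for 6 of 40 members (15%), against 82 of all 31042 probe sets (0.264%). The same 6 members passed at a gap of 0.8, against 0.451% of all, and at 1.5, against 0.0934%. The 6 were 3 of 26 in class I and 3 of 11 in class II. The narrowest gap among them was 1.55, for a probe set of RT1-Bb, and the widest among the rest was 0.78, for a probe set of RT1-Ba.

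The widest gap was found for the class I probe set 1370428_x_at, which names RT1-A3 and RT1-A2. It read 11.12, 12.00, 4.81, 10.77 and 10.37 in control animals 1 to 5 and 11.31, 10.57, 11.29, 10.19 and 4.85 in exposed animals 1 to 5. Control animal 3 and exposed animal 5 were low, with a gap of 5.33 (40.3-fold) to the next animal. This and the folds below are ratios of probe set readings: whether a low reading is less RNA or RNA that the probes match less well was not tested, and genotypes were not used here. The class I probe set 1370429_at, which names RT1-A, separated the same animals. It read 8.44, 8.24, 5.34, 7.97 and 8.05 in controls and 7.57, 8.02, 7.61, 7.86 and 5.23 in exposed animals. The low pair lay 2.23 (4.71-fold) under the other 8.

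A class II probe set, 1377334_at of RT1-Ba, was low in these animals as well. It read 10.50, 9.64, 4.28, 9.10 and 8.96 in controls and 8.55, 9.55, 7.96, 9.39 and 4.83 in exposed animals. The gap was 3.13 (8.73-fold), and among the other 8 animals the values ran on from 7.96 in exposed animal 3 to 10.50 in control animal 1. Over the whole array, 3 probe sets read in 2 levels with control animal 3 and exposed animal 5 on 1 side, and these were the 3 given here.

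A probe set of RT1-Bb, 1371033_at, separated other animals. It read 4.22, 3.95, 8.12, 7.12 and 6.93 in controls and 7.70, 7.35, 6.85, 7.30 and 8.60 in exposed animals. Control animals 1 and 2 were low, by 2.63 (6.20-fold), and control animal 3 and exposed animal 5 were the highest of their groups. Among all probe sets 3 read in 2 levels with control animals 1 and 2 apart, this one and 2 that the annotation leaves unnamed. The unnamed 1393108_at read 5.44 and 4.47 in control animals 1 and 2 and 9.44 to 10.48 in the other 8, with control animal 3 (10.41) and exposed animal 5 (10.48) again the highest of their groups. The unnamed 1388071_x_at read 10.61 and 10.12 in the same 2 controls and 11.98 to 12.72 in the others.

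The second RT1-Bb probe set, 1371065_at, gave yet another separation. It read 4.74, 7.90, 3.75, 4.30 and 4.23 in controls and 6.92, 4.34, 6.28, 4.34 and 3.82 in exposed animals. Control animal 2 and exposed animals 1 and 3 were high, with a gap of 1.55 (2.92-fold). A class I probe set, 1388236_x_at of RT1-CE12, was high in the same 3 animals. It read 9.43, 12.30, 9.54, 9.37 and 9.52 in controls and 11.69, 9.64, 11.74, 9.75 and 9.87 in exposed animals, a gap of 1.82 (3.53-fold). These 2 probe sets were the only ones of the 31042 that read in 2 levels with these 3 animals apart, and in both control animal 2 was the highest of the 3.

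Control animal 3 and exposed animal 5 were low on 1370428_x_at, on RT1-A 1370429_at and on RT1-Ba 1377334_at, and no other animal was. Control animal 2 was low on RT1-Bb 1371033_at and high on 1371065_at and RT1-CE12, while control animal 1 was low on the first and not high on the others. Exposed animals 1 and 3 were high on 1371065_at and RT1-CE12 and not low on any. Control animals 4 and 5 and exposed animals 2 and 4 were on the common side of the gap, held by most animals, on all 6. The separations with control animal 3 and exposed animal 5 and with control animal 2 and exposed animals 1 and 3 took animals of both groups, and that with control animals 1 and 2 took controls alone.

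Probe sets of RT1-Bb, and some of RT1-Ba, placed the animals differently. RT1-Ba has 4, of which 1377334_at is given above. On 1370822_at the values were 7.38, 9.15, 9.12, 8.33 and 8.16 in controls and 9.12, 8.85, 8.59, 8.69 and 9.81 in exposed animals. Control animal 1, the highest on 1377334_at, was the lowest here, and exposed animal 5, low on 1377334_at, was the highest. The remaining 2, 1381593_x_at and 1392334_at, varied by only 0.29 and 0.33 over the 10 animals. The 2 RT1-Bb probe sets went opposite ways in control animal 2, the lowest of all animals on 1371033_at and the highest on 1371065_at. Probe sequences were not used here, so which transcripts each probe set reads was not tested.

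The RT1-D class II genes varied by degrees. Cd74 read 9.86, 10.26, 9.71, 9.70 and 9.48 in controls and 10.09, 9.89, 9.46, 9.76 and 10.17 in exposed animals. RT1-Da, the alpha chain of the RT1-D dimer, read 10.12, 10.37, 9.90, 9.59 and 9.28 in controls and 10.25, 9.98, 9.15, 10.03 and 10.46 in exposed animals. In both, control animal 2 was the highest and control animal 5 the lowest control, and exposed animal 5 was the highest and exposed animal 3 the lowest of the exposed.

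RT1-DMa and RT1-DMb, the chains of the DM molecule that loads peptides onto class II dimers, had the same low animals. RT1-DMa read 6.80, 7.49, 6.76, 6.86 and 5.80 in controls and 7.02, 7.07, 5.98, 6.66 and 6.94 in exposed animals. RT1-DMb read 8.42, 8.73, 8.94, 8.71 and 7.98 in controls and 8.90, 8.90, 8.26, 8.73 and 9.23 in exposed animals. Control animal 5 and exposed animal 3 were the lowest of their groups on each of Cd74, RT1-Da, RT1-DMa and RT1-DMb.

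Cd74 was correlated over the 10 animals with each of the 8 class II probe sets that did not read in 2 levels, and p-values were adjusted over these 8. Pearson's r was 0.936 for RT1-Da (permutation p 0.00017, adjusted 0.00136), with Spearman's rho of 0.952 (permutation p 0.00016, adjusted 0.00128). For RT1-DMa r was 0.875 (permutation p 0.00052, adjusted 0.00208) and rho 0.855 (permutation p 0.00273, adjusted 0.0109). Without control animal 2 and exposed animal 5, farthest from the median of Cd74, r was 0.927 for RT1-Da and 0.876 for RT1-DMa. For RT1-DMb r was 0.700 (permutation p 0.0229) and rho 0.600 (permutation p 0.0736), which did not pass after adjustment (0.0611 and 0.118). The other 5, of RT1-Db1 and RT1-Ba, did not pass either, with r between -0.174 and 0.651. With group means removed, RT1-Da (r 0.935) and RT1-DMa (r 0.884) passed as before.

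Control animal 5 and exposed animal 3 were the lowest of their groups on all 9 measured markers of Kupffer cells and macrophages, on 2 of 3 of B cells, on 4 of 8 of T and NK cells and on 1 of 5 of dendritic cells. The mean log2 value of Kupffer cell and macrophage markers, with 9 of 11 listed genes measured, was 8.18 to 9.37 in controls and 8.51 to 9.44 in exposed animals. Its lowest values were those of control animal 5 (8.18) and exposed animal 3 (8.51), the animals lowest for Cd74. The mean of B cell markers (3 of 6 measured) was 4.90 in control animal 5 and 4.89 in exposed animal 3, against up to 5.29 in controls and 5.46 in exposed animals. Dendritic cell markers (5 of 8 measured) lay at 5.21 to 5.38 in controls and 5.27 to 5.49 in exposed animals, T and NK cell markers (8 of 8) at 4.60 to 5.07 and 4.64 to 5.14, and sinusoidal endothelial markers (4 of 5) at 8.76 to 9.11 and 8.88 to 9.14. RMA values have no 0, so no marker could be called absent. RNA quality was read from the array's own Gapdh and beta-actin sets, as the log2 signal near the 3' end over that near the 5' end. It was highest in control animal 5, at 0.735, while exposed animal 3 read 0.578 and the others 0.494 to 0.626. The part of these cells and of RNA quality in the class II values was not tested, and in whole liver fewer cells of a type and less RNA per cell cannot be told apart.

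RT1-Db1, the beta chain of the RT1-D dimer, has 2 probe sets. On 1370382_at the values were 6.93, 7.05, 8.22, 7.24 and 7.14 in controls and 7.92, 7.64, 7.27, 7.48 and 8.44 in exposed animals, and on 1370383_s_at they were 8.36, 8.18, 8.52, 8.11 and 8.06 in controls and 8.51, 8.41, 7.78, 8.29 and 8.84 in exposed animals. Both were highest in control animal 3 and exposed animal 5, the animals low on the class I probe sets 1370428_x_at and 1370429_at. On 1370383_s_at, though, control animal 3 (8.518) was nearly level with exposed animal 1 (8.512). Ciita was dim. Its brighter probe set, 1369214_a_at, read 5.25, 5.42, 5.01, 5.32 and 5.01 in controls and 5.23, 5.18, 5.20, 5.38 and 5.33 in exposed animals. Control animal 2 was the highest there, and exposed animal 4 was the highest and exposed animal 2 the lowest of the exposed. On 1379381_at Ciita read 4.88, 5.54, 4.87, 4.86 and 4.84 in controls and 5.22, 5.18, 4.83, 5.05 and 5.36 in exposed animals. Control animal 2 and exposed animal 5 were highest on 1379381_at and exposed animal 3 lowest, so the 2 probe sets ordered the exposed animals differently.

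Among class I genes, RT1-S3, a nonclassical gene that is the counterpart of mouse H2-T23 (Qa-1), gave the closest agreement. Its 4 probe sets were correlated in 6 pairs with r of 0.938 to 0.984 and rho of 0.915 to 1.00, as part of a family of 22 pairs of probe sets of 1 gene, chosen after the values were seen. Of 26 such pairs, the 4 that hold a probe set in 2 levels (1 of RT1-Bb and 3 of RT1-Ba) were not correlated, since their values fall into clusters, so the family leaves out those described above as differing. All 6 passed (permutation p adjusted over the 22 pairs up to 0.00044 for r and 0.00209 for rho), and r was 0.918 to 0.985 without the 2 animals farthest from the median. On 1371123_x_at the values ran from 10.26 to 10.96, on 1388164_at from 10.27 to 11.02 and on 1388213_a_at from 9.94 to 10.60. On 1388212_a_at the values were 10.88, 11.02, 11.45, 11.05 and 11.18 in controls and 11.59, 11.29, 11.40, 11.28 and 11.18 in exposed animals. Exposed animal 1 was highest and control animal 1 lowest on all 4. Probe sets of a gene may share probes, so they are not separate measurements of the RNA.

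RT1-T24-3 and RT1-T24-4, nonclassical genes with 3 annotated genes between them, ordered the animals in much the same way. RT1-T24-3 read 8.57, 7.76, 6.79, 7.80 and 7.73 in controls and 7.20, 7.97, 6.72, 8.21 and 7.08 in exposed animals. RT1-T24-4 read 9.35, 8.90, 8.29, 8.89 and 8.85 in controls and 8.50, 9.04, 8.22, 9.09 and 8.50 in exposed animals. Control animal 1 was the highest on both, and control animal 3 and exposed animals 1, 3 and 5 were the 4 lowest. These 4 were also the lowest on 1377334_at of RT1-Ba, on 1370429_at of RT1-A and on 1371209_at and 1388255_x_at of RT1-CE5. Both RT1-CE5 probe sets were dim, with means over all animals of 3.29 and 3.52. On 1370428_x_at the 4 were not the lowest, since exposed animals 1 and 3, at 11.31 and 11.29, were the highest of the exposed. The pattern was picked after the values were seen, and its share among all probe sets was not counted.

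RT1-CE5, a class I gene of the C/E region, has 5 probe sets that fell apart. Only 1370972_x_at lay above the median probe set, with a mean over all animals of 7.70, and the others were dim, with means of 3.06 to 4.49. On 1371209_at the values were 4.29, 3.79, 2.84, 3.20 and 3.11 in controls and 2.98, 3.47, 2.77, 3.68 and 2.73 in exposed animals, and those of 1388255_x_at ran with them (r 0.923, permutation p 0.00013, adjusted 0.00044; rho 0.867, permutation p 0.00225, adjusted 0.00707; r 0.825 without control animals 1 and 2). Both were highest in control animal 1. The probe set 1370972_x_at was lowest in control animal 1, at 7.46, against 7.53 to 7.98 in the others, and its r with 1371209_at was -0.593 (permutation p 0.0714, adjusted 0.118; rho -0.600, permutation p 0.0734, adjusted 0.108), or -0.129 without exposed animal 3 and control animal 1. Of the 22 pairs, 8 passed for r, 6 of RT1-S3 and 1 each of RT1-CE5 and RT1-Db1. For RT1-Db1 r was 0.767 (permutation p 0.00796, adjusted 0.0219) with rho of 0.709 (permutation p 0.0257, adjusted 0.0628). Without control animal 3 and exposed animal 5, farthest from the median of 1370382_at, r was 0.491. Leaving out such animals narrows the range of values, and how far the relation rested on them was not tested.

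Among the remaining class I probe sets, RT1-CE10 and RT1-CE16 ranged over 1.60 and 1.06 on the log2 scale. RT1-CE10 was lowest in control animal 1, at 6.86, against 7.58 to 8.46 in the others. RT1-CE16 ran from 7.40 in control animal 1 to 8.46 in exposed animal 1. RT1-M3-1, which shows bacterial N-formyl peptides, ran from 6.28 to 6.93, RT1-N3 from 4.82 to 5.38 and RT1-N2 from 3.27 to 4.03. The 2 single-symbol probe sets of RT1-A3 ran from 3.14 to 3.93 and from 4.60 to 5.01. Control animal 3 was lowest on both and neither held the gap seen on 1370428_x_at. Both were dim in all animals, under the median probe set at 5.47, and whether they could have shown such a gap was not tested. The probe sets that name several genes, apart from 1370428_x_at, each varied by at most 0.62 over the animals.

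The comparison of exposed with control livers asks whether the effluent altered MHC expression. Exposed livers had higher means for 26 of 40 members and lower means for 14, with a median difference of 0.09 on the log2 scale. Of 26 class I probe sets 14 were higher (median difference 0.05), and of 11 class II probe sets 9 were higher (median 0.12), as were Cd74 and both Ciita probe sets, against 52.0% of all probe sets and a median of 0.0044. Leaving out 1 animal at a time gave 7 (without control animal 5) to 11 (without control animal 1) class II probe sets higher, with a median of 0.073 (without control animal 5) to 0.26 (without exposed animal 3). The class I median ran from 0.011 to 0.14. Limma called 0 members at an adjusted p of 0.05 (smallest adjusted p 0.879), as it called 0% of all probe sets. At an unadjusted p under 0.05 there were 5 members, 3 higher and 2 lower, against 5.46% of all probe sets (3.07% higher and 2.39% lower), and 0 members had groups that did not overlap, against 0.892% of all. The exact permutation test gave 5 members under an unadjusted 0.05 as well, against 5.36% of all probe sets. Of these 3 were shared with limma (RT1-M3-1, RT1-CE10 and RT1-CE5 1371210_s_at) and 2 were other class I probe sets that name several genes (1371078_at and 1371267_at, differences of 0.17 each).

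The 5 with an unadjusted p under 0.05 by limma were all of class I. RT1-M3-1 read 6.43, 6.64, 6.28, 6.36 and 6.43 in controls and 6.76, 6.62, 6.54, 6.71 and 6.93 in exposed animals, a difference of 0.28 ± 0.09 (SE; limma adjusted p 0.879, exact permutation p 0.0238). RT1-CE10 read 6.86, 7.58, 8.18, 7.93 and 7.68 in controls and 8.13, 8.03, 8.19, 7.98 and 8.46 in exposed animals, a difference of 0.51 ± 0.20 that was 0.31 without control animal 1. On 1388212_a_at RT1-S3 differed by 0.23 ± 0.11, and the 4 RT1-S3 probe sets by 0.21 to 0.23. RT1-N2 and RT1-CE5 1371210_s_at were lower, by -0.26 ± 0.11 (-0.16 without control animal 1) and -0.18 ± 0.07. Both were dim, with means over all animals of 3.49 and 4.49, under the median probe set at 5.47. Their groups overlapped, and the limma adjusted p was 0.879 for all 5. The count of 5 was 2 without control animal 1 or exposed animal 5, 3 without exposed animal 1 or 2 and 12 without control animal 3.

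For the probe sets in 2 levels the difference between groups depended on which animals fell where. RT1-Bb 1371033_at had the largest difference of the members, with a mean of 6.07 ± 1.87 for controls and 7.56 ± 0.65 for the exposed (SD, 5 animals a group), or 1.49 with a 95% interval of -0.04 to 3.03 (limma adjusted p 0.879, exact permutation p 0.175). The 2 low animals were both controls, the other 3 controls read 6.93 to 8.12 and the exposed 6.85 to 8.60, and the difference was 0.96 without control animal 2. RT1-A3 and RT1-A2 (1370428_x_at) differed by -0.17 (95% interval -3.23 to 2.89), or 1.03 without exposed animal 5 and -1.42 without control animal 3. RT1-A differed by -0.35 (-1.69 to 0.99), or 0.16 without exposed animal 5, and RT1-Ba 1377334_at by -0.44 (-2.84 to 1.96), or 0.37 without exposed animal 5. RT1-CE12 differed by 0.50 (-0.79 to 1.80), or 0.21 without exposed animal 3 and 1.07 without control animal 2, and RT1-Bb 1371065_at by 0.16 (-1.52 to 1.83), or -0.29 without exposed animal 1.

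The class II genes that varied by degrees were measured more closely. Cd74 differed by 0.07 (95% interval -0.26 to 0.40), RT1-Da by 0.12 (-0.40 to 0.64), RT1-DMa by -0.0049 (-0.60 to 0.59), RT1-DMb by 0.25 (-0.16 to 0.66) and RT1-Db1 1370383_s_at by 0.12 (-0.23 to 0.47). The other RT1-Db1 probe set, 1370382_at, differed by 0.44 with a wider interval (-0.11 to 0.98). RT1-Ba 1370822_at differed by 0.58 (-0.11 to 1.27), or 0.32 without control animal 1, and Ciita 1369214_a_at by 0.06 (-0.13 to 0.25). Limma adjusted p values of these were 0.880 to 0.998. RT1-DMb differed by 0.11 without control animal 5, RT1-Db1 1370383_s_at by 0.0017 without exposed animal 5 and Ciita by 0.015 without control animal 5. Without control animal 5, lowest of the controls for Cd74 and for macrophage markers, Cd74 differed by -0.0096 and RT1-Da by -0.02, and without exposed animal 5 Cd74 differed by -0.0043. Of the 9 Kupffer cell and macrophage markers measured, all 9 had higher means in exposed livers (median 0.21) and limma called 0, and their part in the class II differences was not tested. A change of 2-fold in either direction lay outside the 95% interval for 33 of the 40 members, and a change of 1.5-fold for 23. In class I these were 23 and 17 of 26 probe sets, and in class II only 7 and 3 of 11.

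Signs between probe sets of a gene agreed for RT1-S3 (4 of 4 higher), RT1-Db1, RT1-Bb, RT1-A3 and Ciita (2 of 2 higher each). The 2 RT1-Bb probe sets separated different animals, with differences of 1.49 and 0.16, and the smaller was -0.29 without exposed animal 1. RT1-Ba was higher on 3 of 4 and RT1-CE5 on 1 of 5, with differences of -0.44 to 0.58 and -0.32 to 0.16. The RT1-CE5 probe set that was higher, 1370972_x_at, was the only 1 of the 5 that was not dim.

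Other genes of antigen presentation were counted from lists written by their known roles. Of 18 listed genes that load class I or drive its expression, 16 were measured, of which 12 had higher and 4 lower means in exposed livers (median 0.03), and limma called 0. The smallest p values were those of Tap1, a subunit of the TAP peptide pump, at 0.14 ± 0.10 (SE), Tapbp, which tethers class I to TAP, at 0.18 ± 0.15 and the immunoproteasome subunit Psmb8 at 0.10 ± 0.12, with limma adjusted p values of 0.903, 0.913 and 0.938. Leaving out 1 animal moved Tap1 to 0.072 (without control animal 2), Tapbp to 0.073 (without control animal 4) and Psmb8 to 0.034 (without exposed animal 1). Of 13 genes that drive class II or cut its peptides, 10 had higher and 3 lower means (median 0.01), and limma called 0. Creb1, a factor that joins the class II enhanceosome, read 6.97, 7.11, 7.13, 7.23 and 7.37 in controls and 6.61, 6.89, 6.13, 7.06 and 6.30 in exposed animals, a difference of -0.56 ± 0.16 (SE; limma adjusted p 0.879). Exposed animal 4, at 7.06, lay within the control range and the other 4 below it. Nfya, a subunit of the factor that binds the Y box, differed by 0.14 ± 0.08 and Rfxap, a subunit of the factor that binds the X box, by -0.16 ± 0.09, both with a limma adjusted p of 0.880.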

How the data were processed

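Liver RNA of 5 control and 5 exposed rats was read on Affymetrix 3' expression arrays, 1 array an animal. The submitters' processing notes name RMA and R 2.8.1, a method that normalizes arrays to one another. Whether the authors ran all 10 arrays together is not given in the sources used here. The deposited numbers lie between 2.19 and 15.0 and were taken as log2 expression per probe set. From 31099 probe sets 57 control sets of the maker were dropped. The platform annotation gave 1 symbol to 20826 probe sets, several to 436 and none to 9780.

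Groups were compared by limma 3.58.1 under R 4.3.3 (linear model with moderated variances, two-sided). Its p-values were adjusted by Benjamini and Hochberg's method across all 31042 probe sets, with a threshold of 0.05. Exact permutation tests of 5 against 5 animals cannot give a p under 0.00794. Correlations used 100000 permutations. Limma and the gap rule were tested on simulated data. The members, lists and alternatives were chosen with earlier results of these data known. Any member could be named. All 10 values were due for members in 2 levels and for the brightest probe set of each class II gene, Cd74, Ciita and RT1-A, and values for the 3 smallest p of each pathway list. The class I probe sets and other members given with all 10 values beyond these were chosen after their values were seen. The labels number animals 1 to 5 in both groups and state no pairing. Of 27 member symbols 22 were found among RefSeq's promoters (not Ciita, RT1-A, RT1-CE7, RT1-DMb and RT1-M4). The number of arrays limits precision.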

Additional observations from a re-analysis of the deposited data

Results flagged for a closer look

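Within groups of 5, an animal was singled out where its gap to the nearest of the others was over 0.71 of the range of the group. This held for 17 of 92 groups of named values, against about 4.6 by chance, and the probe sets are not independent. Control animal 3 read 4.81 on RT1-A3;RT1-A2 (others 10.37 to 12.00), 5.34 on RT1-A (7.97 to 8.44), 4.28 on RT1-Ba 1377334_at (8.96 to 10.50) and 8.22 on RT1-Db1 1370382_at (6.93 to 7.24). Exposed animal 5 read 4.85 on RT1-A3;RT1-A2 (10.19 to 11.31), 5.23 on RT1-A (7.57 to 8.02), 4.82 on RT1-N3 (5.09 to 5.19) and 5.95 on the probe set naming RT1-A, RT1-CE16 and RT1-A1 (5.74 to 5.78). Control animal 2 read 7.90 on RT1-Bb 1371065_at (3.75 to 4.74), 12.30 on RT1-CE12 (9.37 to 9.54) and 5.54 on Ciita 1379381_at (4.84 to 4.88).

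Exposed animal 1 read 7.42 on 1371078_at, which names RT1-A and 4 RT1-C/E genes (7.04 to 7.10), 10.96 on RT1-S3 1371123_x_at (10.56 to 10.65) and 4.23 on RT1-M6-1;RT1-M4 (4.41 to 4.48). On 1371078_at control animal 1 read 6.82 (6.99 to 7.05). Exposed animal 4 read 3.57 on RT1-N2 (3.27 to 3.35) and exposed animal 2 read 7.73 on Tapbp (8.21 to 8.31).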

How the results depend on the processing

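The 40 members gave 0 calls under every alternative run, namely a filter on low values, median centring, quantile normalization, the replicate block, array weights, a trended and robust prior and leaving out each animal, and calls over all probe sets numbered 0 to 1 in leave-one-out fits, the 1 arising when exposed animal 1 was dropped, and 0 elsewhere. The count at an unadjusted p under 0.05 was 2 with the filter, which keeps 26 members, and 9 with quantile normalization, and 2 to 12 in leave-one-out fits. The median class I difference was 0.19 with the filter, which keeps 15 probe sets, and 0.011 to 0.14 in leave-one-out fits. The counts of probe sets in 2 levels stayed at 3 and 3 without each animal in turn and with a gap of 0.8 or 1.5, and were 3 and 2 with the filter. Among differences of single probe sets, 20 of 240 compared reversed sign in leave-one-out fits and 2 of 164 in other settings. Those 2 were RT1-DMa, to 0.0096 with quantile normalization, and RT1-Bb 1371065_at, to -0.080 with array weights. The cause of the reversals was not tested. Leave-one-out ranges that changed sign were -0.0096 to 0.19 for Cd74, -0.92 to 0.16 for RT1-A, -1.42 to 1.03 for RT1-A3;RT1-A2, -1.49 to 0.37 for RT1-Ba 1377334_at, -0.29 to 0.89 for RT1-Bb 1371065_at, -0.24 to 0.18 for RT1-DMa and -0.021 to 0.33 for RT1-Da. Animals with the same replicate number did not deviate together (correlations of -0.070 to 0.094), so the replicate block was kept as an alternative, under which 4 members had an unadjusted p under 0.05 and no call or sign of the results compared changed. Signal over background was not analysed here, so which dim probe sets could be measured is unknown.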
